A study of Mus musculus with 30 samples.

Results

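The genes described here are 7 mouse genes that carry, activate, inactivate, bind or respond to thyroid hormone, namely *Slco1c1*, *Dio2*, *Dio3*, *Thra*, *Thrb*, *Hr* and *Klf9*. They were chosen by name among the 19737 genes of a whole-brain RNA-Seq table, and all 7 had values above 0 in all 30 libraries. Each library came from a male C57BL/6N mouse, either wild-type (WT) or heterozygous for *Arid1b* (HT), which encodes a subunit of the BAF chromatin remodeling complex. The groups were P10-WT and P10-HT at postnatal day 10, with no treatment named, and WT-Veh, HT-Veh, WT-Flx and HT-Flx at postnatal day 120, with 5 libraries each. Dams of the Flx pups drank fluoxetine, a serotonin reuptake inhibitor, at 0.1 mg per ml in 0.2% saccharin water from day 3 to day 21, so that the pups received it in milk, and dams of the Veh pups drank the saccharin water alone. The HT mice carry a mutation in exon 5 of *Arid1b* in all cells, the adults had normal water after weaning, and whole brain mixes all regions and cell types.

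Thyroid hormone enters the brain largely as the prohormone T4. OATP1C1, the product of *Slco1c1*, carries T4 across brain endothelium and into astrocytes. There *Dio2* encodes the type 2 deiodinase, which converts T4 to the active hormone T3, and *Dio3* encodes the type 3 deiodinase, found mainly in neurons, which inactivates both hormones. The nuclear receptors encoded by *Thra* and *Thrb* bind T3 and regulate genes such as *Hr*, a corepressor that binds these receptors, and *Klf9*, a zinc finger factor that also responds to glucocorticoids. In rodents the weeks after birth are a period of high demand for this hormone.

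Values are DESeq2-normalized counts per gene, here called normalized counts, and differences are on the log2(value + 1) scale with standard errors (SE) from limma. A gene passed when its adjusted p (Benjamini-Hochberg, over all genes tested) was under 0.05. The read depth is not known from these values, whose sums ran from 31578614 to 41801037 per library. The targeted gene *Arid1b* was lower in HT, with 2162 to 2334 in P10-HT against 3164 to 3309 in P10-WT and 2164 to 2616 in HT-Flx against 2961 to 3392 in WT-Flx. Among the vehicle libraries 2 went against their label. That labelled HT-Veh replicate 2 had 3361 and that labelled WT-Veh replicate 2 had 2320, while the remaining 4 HT-Veh libraries had 1973 to 2480 and the remaining 4 WT-Veh libraries 3036 to 3229. Both are kept under their labels. Counts of members that rest on them, and the main differences, are given with and without them. HT-Veh against WT-Veh was compared in replicates 1, 3, 4 and 5. These are the mice in the list of results deposited with the paper for this comparison, although its figure legends count every mouse of these groups.

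The libraries at day 120 also differed in how their values moved with base composition. This GC tilt is the mean log2 deviation of the 25% of genes with the highest GC content minus that of the 25% with the lowest. WT-Flx libraries ran from −0.69 to −0.53 and HT-Flx libraries from 0.48 to 1.21, while HT-Veh spanned −0.66 to 0.71 and WT-Veh −0.45 to 0.32. At day 10 it was −0.29 in P10-HT replicate 1, and the other P10 libraries lay between −0.07 and 0.07. The transcripts of *Hr* (61.6% GC), *Thra* (59.8%) and *Dio3* (57.8%) are above the upper quartile of 54.8%, those of *Dio2* (43.4%), *Thrb* (44.1%) and *Slco1c1* (43.1%) are below the lower quartile of 45.2%, and that of *Klf9* is at 47.5%. Each difference was therefore also computed after a library's own average departure was subtracted bin by bin, over bins of GC content and transcript length, and is called corrected.

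**Figure D1:**
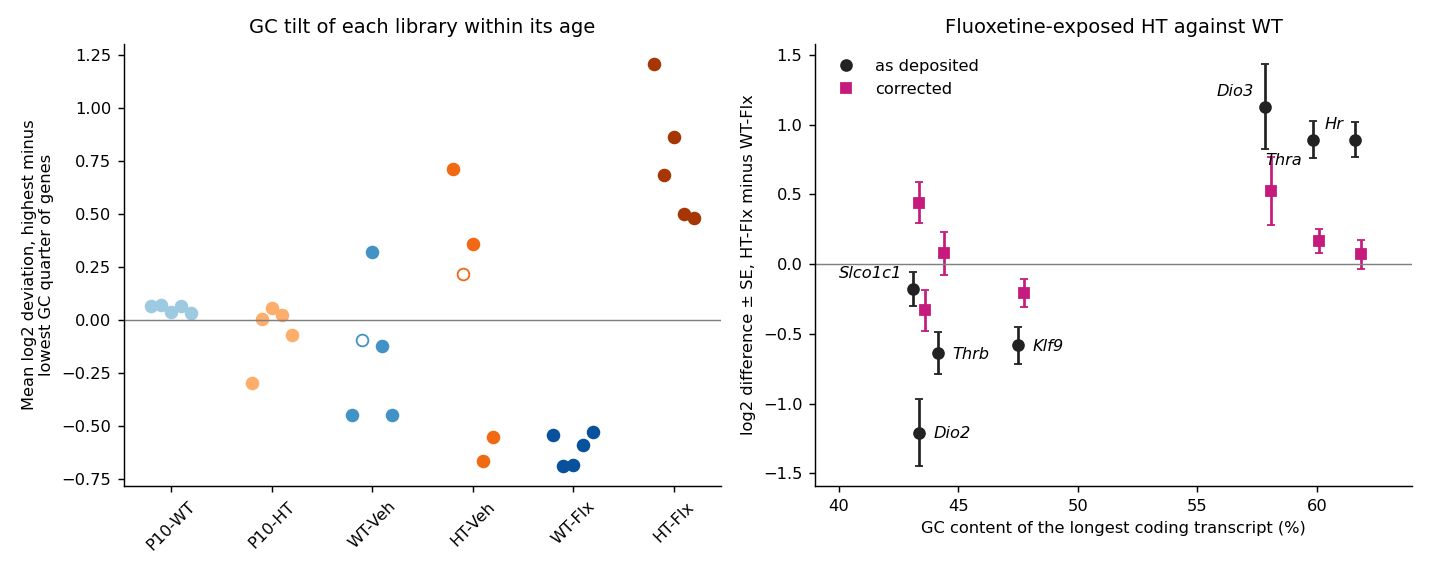
GC tilt of each library (left, log2 scale, open circles for the libraries labelled replicate 2 of the vehicle groups) and, for each of the 7 genes, the HT-Flx minus WT-Flx log2 difference (SE bars) against the GC content of its transcript in percent (right, black as deposited, magenta corrected, shifted to the right for clarity). All 5 HT-Flx libraries lie above 0 and all 5 WT-Flx libraries below 0, and as deposited the 3 genes over 57% GC were higher in HT-Flx while the 4 genes under 48% GC had negative differences.

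Both deiodinases are selenoproteins. Their coding sequences hold an in-frame TGA, ordinarily a stop codon, at which selenocysteine is inserted in the active site. *Dio2* has a further in-frame TGA near its end, at codon 263 of 266. The active-site TGA is codon 130 of 266 in *Dio2* (ENSMUSG00000007682, minus strand, chr12:90724552-90738438 in GRCm38) and codon 170 of 304 in *Dio3* (ENSMUSG00000075707, plus strand, chr12:110279068-110281097). The 63 bases around it, from chr12:90729793-90729855 and chr12:110279709-110279771, are shown because the 2 enzymes share this site while their transcripts differed in opposite directions between the ages. Capitals mark the TGA.
Dio2: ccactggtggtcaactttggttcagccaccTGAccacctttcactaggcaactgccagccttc
Dio3: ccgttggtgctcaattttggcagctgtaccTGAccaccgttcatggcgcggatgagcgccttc

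The promoter tables of RefSeq (GRCm38.p6) hold 6 promoters for 5 of the 7 genes, none for *Thra* or *Hr*. The 250 bases before the *Dio2* start, chr12:90739039-90739288 on the minus strand with 41.6% GC, are shown because they hold a cAMP response element, the site through which cyclic AMP is known to induce this gene. Capitals mark that element (TGACGTCA, first base at −95 from the start) and a TATA box (TATAAA, at −30).
Dio2 promoter: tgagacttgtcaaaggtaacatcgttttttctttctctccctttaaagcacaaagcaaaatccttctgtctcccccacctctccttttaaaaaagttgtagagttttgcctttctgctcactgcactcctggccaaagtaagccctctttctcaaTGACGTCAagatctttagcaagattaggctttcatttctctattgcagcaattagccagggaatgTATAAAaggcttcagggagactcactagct
Of 32851 promoters of this length, 1.55% hold the cAMP element and 12.4% the TATA box, on either strand. The *Dio3* promoter (chr12:110278980-110279229, plus strand, 69.6% GC) holds 4 GC boxes (GGGCGG, in 32.7% of promoters) and a TATA box. Both windows end at RefSeq starts, which differ from those of the GENCODE gene spans given above. That of *Dio3* lies partly inside its span, and that of *Dio2* lies apart from its span. The hexamer that a thyroid hormone receptor binds (AGGTCA, in 14.0% of promoters) was found in 1 of the 6 promoters, the more GC-rich of the 2 of *Thrb*, and its direct repeat with a spacer of 4 bases (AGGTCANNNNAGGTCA, in 0.0152%) in none. An E-box (CACGTG, in 6.02%) was found in the other *Thrb* promoter. The hexamer is part of the repeat, and no other searched motif contains another. The *Slco1c1* and *Klf9* promoters hold none of the 6 motifs in this window.

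The 2 receptors recognize DNA through the same zinc finger. The 60 spliced coding bases around the P box, the residues that read the hexamer, are given with the P box codons in capitals. That of *Thra* (ENSMUSG00000058756, plus strand) lies in exons within chr11:98756988-98760899, and its P box starts at codon 70. That of *Thrb* (ENSMUSG00000021779, plus strand) lies in exons within chr14:18002593-18008592, and its P box starts at codon 138 of 475.
Thra: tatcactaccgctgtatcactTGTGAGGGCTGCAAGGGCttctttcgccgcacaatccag
Thrb: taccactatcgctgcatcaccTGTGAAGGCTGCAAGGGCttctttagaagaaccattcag
The stretches share 49 of 60 bases, and 56 of the 66 residues translated around them are identical. *Thra* has 2 main products, of 410 and 492 residues, with the first 370 in common. The longer product corresponds to TRα2, which does not bind T3. Its last exon lies on the opposite strand of *Nr1d1* (REV-ERBα, a repressor in the circadian clock), the 2 genes overlap by 1075 bp at chr11:98767932-98769006, and 263 bp are exonic in both. These 263 bp are coding in the transcript of the longer product, and none are in that of the shorter. A 60-base stretch of the shared exonic sequence, chr11:98768258-98768317, is shown on the *Thra* strand. Transcripts of *Nr1d1* carry its reverse complement.
Thra and Nr1d1 shared exon: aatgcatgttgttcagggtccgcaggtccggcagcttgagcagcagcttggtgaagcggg
The library kit named in the labels does not mark strand, so reads from these 263 bp cannot be assigned to either gene by strand. They are 8.55% of the exonic length of *Nr1d1*. The deposited values are per gene, so the 2 *Thra* products cannot be told apart.

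**Figure D2:**
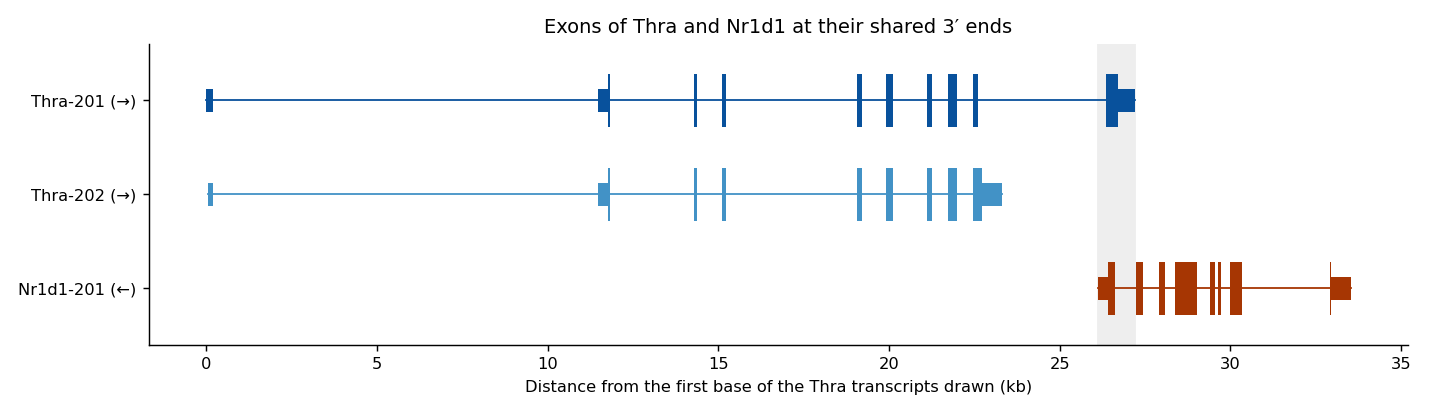
Exons of the *Thra* transcripts for 492 (top) and 410 residues and of *Nr1d1* (bottom) by distance in kb from the first base of the Thra transcripts drawn, with coding parts tall, other exonic parts low, arrows for the strand, and the overlap of the gene spans shaded. The upper *Thra* transcript reaches into the shaded 1075 bp and the lower one ends before it.

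Levels of the 7 genes spanned a wide range. Per kb of the longest coding transcript and over all 30 libraries, *Thra* averaged 12919 normalized counts per kb and stood above 99.5% of the genes with a mean of at least 10. *Klf9* averaged 1186 per kb, *Slco1c1* 526, *Hr* 391, *Dio2* 322, *Thrb* 155 and *Dio3* 42.2. *Thra* was thus the more abundant receptor transcript at this scale in whole brain, and *Dio3* the least abundant of the set. The spread between mice of P10-HT ran from 2.81% of the mean (coefficient of variation) for *Thra* to 36.1% for *Dio3*. With the library labelled replicate 2 included, HT-Veh had the widest spread of the 4 adult groups for *Dio3* (45.1%), *Thra* (37.3%), *Thrb* (31.4%), *Hr* (29.2%), *Klf9* (25.4%) and *Slco1c1* (20.6%), and HT-Flx had it for *Dio2* (38.5%). In the order of the 6 group means the ranges of neighboring groups overlapped, except between P10-WT and WT-Flx for *Slco1c1* and for *Dio3*.

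Between P10 and P120 the largest differences of the set, as deposited, were in the deiodinases and the transporter. *Slco1c1* and *Dio2* were lower at P120 and *Dio3* was higher, in both genotypes. P120-Veh was compared with P10 within each genotype to ask how the genes differ between the pup and the adult brain. The P120 libraries also carry a different prefix in their column names, whose meaning is not given, and come from mice whose dams drank saccharin water. Age, saccharin and anything that goes with the prefix cannot be told apart. The groups share no library between the 2 genotypes.

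*Slco1c1* had 2206, 2383, 2403, 2323 and 2391 normalized counts in P10-WT and 1433, 1191, 1416, 1027 and 1213 in WT-Veh. It had 2670, 2391, 2453, 2405 and 2591 in P10-HT and 1383, 1427, 818, 1185 and 1395 in HT-Veh. Every P10 library lay above every P120 library, including the Flx groups, whose highest value was 1580. The log2 difference was −0.91 in WT (SE 0.088, adjusted p = 1.99e-06 in limma, 1.88-fold lower) and −1.04 in HT (SE 0.15, adjusted p = 8.27e-05, 2.05-fold lower). Within each genotype the groups were fully apart (exact permutation test, two-sided, p = 0.00794, the smallest that 5 and 5 allow). The corrected differences were −0.76 and −0.78 and both passed.

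*Dio2* had 2472, 2280, 2319, 2028 and 3004 normalized counts in P10-WT and 1697, 1546, 911, 1261 and 1992 in WT-Veh. It had 4435, 2929, 2975, 2590 and 3504 in P10-HT and 778, 988, 1091, 1706 and 1896 in HT-Veh. The ranges did not overlap in either genotype, and the gap was narrow in WT. The log2 difference was −0.75 in WT (SE 0.18, adjusted p = 0.00283 in limma) and −1.40 in HT (SE 0.23, adjusted p = 2.85e-04), and −0.40 and −0.82 after correction, both passing. The larger value in HT was not separated from that in WT by the test of the difference, which gave −0.66 (SE 0.31, adjusted p = 0.877 in limma).

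*Dio3* had 29.6, 26.0, 38.4, 27.9 and 36.4 normalized counts in P10-WT and 74.6, 136, 99.9, 114 and 85.4 in WT-Veh. It had 14.2, 41.7, 35.4, 24.2 and 31.3 in P10-HT and 138, 82.5, 198, 74.96 and 85.8 in HT-Veh. All P10 libraries were at or below 41.7 and all P120 libraries at or above 52.1. The log2 difference was 1.64 in WT (SE 0.19, adjusted p = 8.70e-06 in limma, 3.12-fold) and 1.93 in HT (SE 0.32, adjusted p = 3.07e-04, 3.80-fold), and 1.46 and 1.57 after correction. *Dio3* stayed the least abundant member at both ages. *Dio3os*, a noncoding RNA on the opposite strand whose start lies 896 bp from that of *Dio3*, was at 2.2 to 12.3 in P10 and 3.6 to 26.1 in P120 libraries, and its mean in the age comparisons was under the minimum of 10.

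As deposited, the receptors and response genes differed less between the ages. *Klf9* was lower in WT-Veh (5037 ± 799, SD, n = 5) than in P10-WT (6176 ± 408), by −0.31 (SE 0.099, adjusted p = 0.0170 in limma), and lower in HT-Veh (4714 ± 1199) than in P10-HT (6381 ± 354), by −0.47 (SE 0.15, adjusted p = 0.0186 in limma). After correction these were −0.10 and −0.17 and neither passed. *Thra* was 0.23 higher in WT-Veh (adjusted p = 0.0194 in limma) and 0.30 in HT-Veh (adjusted p = 0.243), against corrected values of −0.06 and −0.14, which did not pass and have the opposite sign. *Thrb* and *Hr* did not pass in either genotype. *Thrb* was at 812 to 948 in P10-WT and 705 to 1226 in WT-Veh, and its corrected differences were 0.47 in WT (adjusted p = 0.00181 in limma) and 0.52 in HT (adjusted p = 0.00790), both passing. In WT the corrected difference of *Thrb* was larger in size than that of *Dio2*. *Hr* was at 1943 to 2361 in P10-WT and 1868 to 2476 in WT-Veh, with a corrected difference of −0.23 (adjusted p = 0.0283 in limma). In HT it went the other way, with corrected means of 10.76 in P10-HT and 10.89 in HT-Veh on the log2 scale. The calls that held with and without the correction were therefore those of *Slco1c1*, *Dio2* and *Dio3*.

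In all, 5 of the 7 genes passed in WT and 4 of the 7 in HT, beside 58.3% and 51.1% of all genes tested in those comparisons. In 3 of the 7 genes the ranges of the groups were apart in each genotype, beside 45.6% of all genes in WT and 40.2% in HT. Without the library labelled WT-Veh replicate 2 the count was 5 in WT, where 10056 of 17936 genes passed. The log2 differences were −0.89 for *Slco1c1*, −0.77 for *Dio2*, 1.53 for *Dio3*, 0.19 for *Thra* (adjusted p = 0.0463 in limma) and −0.31 for *Klf9*. *Thrb* at 0.028 and *Hr* at 0.038 did not pass. Without the library labelled HT-Veh replicate 2 the count was 4 in HT, where 8221 of 18015 genes passed. The differences were −1.10 for *Slco1c1*, −1.33 for *Dio2*, 2.02 for *Dio3* and −0.44 for *Klf9* (adjusted p = 0.0458 in limma). *Thra* at 0.29, *Thrb* at 0.050 and *Hr* at 0.41 did not pass. For the 7 genes the difference between genotypes in the age effect passed in 0, beside 0% of 17978 genes tested with limma (612 had an unadjusted p under 0.05). Without both libraries labelled replicate 2 of the vehicle groups it passed in 0 of the 7 and 0 of 17969 genes, and was −0.55 for *Dio2*. Without HT-Veh replicate 4 *Thra* (0.45, adjusted p = 0.0493) and *Hr* (0.59, adjusted p = 0.0359) also passed in HT, and without WT-Veh replicate 3 *Thrb* (0.23, adjusted p = 0.0492) passed in WT, all in limma. In whole brain, fewer cells of a type and less RNA per cell cannot be told apart. The summed level of 10 brain endothelium markers was 9587 to 11833 at P10 and 11514 to 14751 in the vehicle groups at P120, and that of 10 astrocyte markers was 104741 to 129115 at P10 and 132107 to 166821 in the vehicle groups. Of the endothelium markers 4 passed as higher and 5 as lower in WT, and of the astrocyte markers 5 as higher and 1 as lower. The median log2 difference of the endothelium markers was −0.22 in WT and −0.21 in HT, opposite in direction to their sum. That of the astrocyte markers was 0.23 in WT and 0.32 in HT. The part of these cell types in the *Slco1c1* and *Dio2* differences was not tested.

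**Figure D3:**
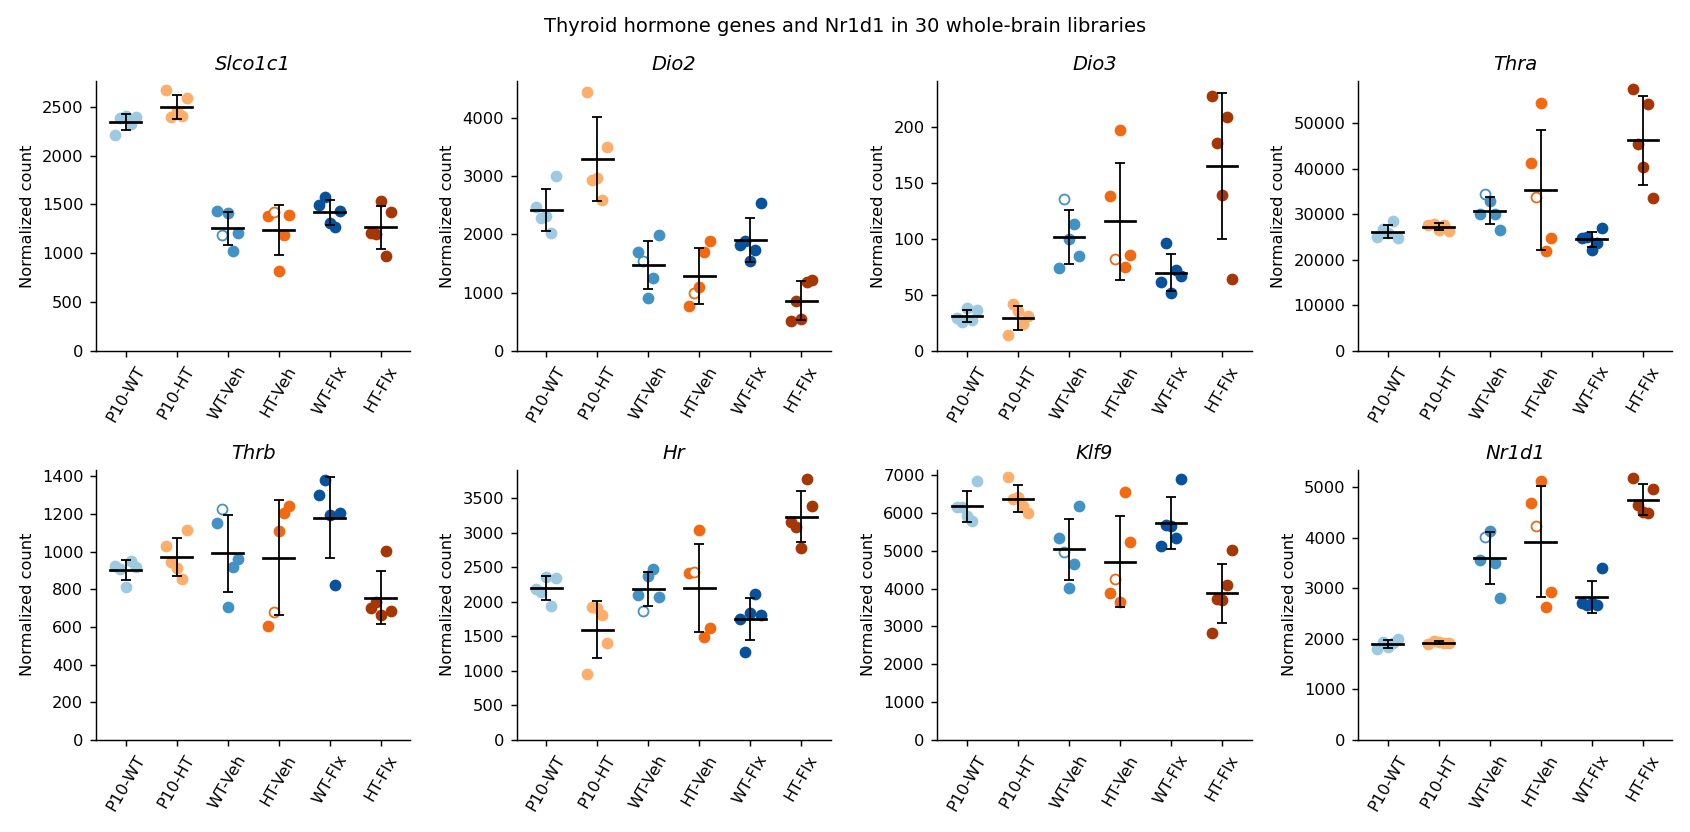
Normalized counts of the 7 genes and of *Nr1d1* in each library of the 6 groups, with the group mean (line) and SD (bar) of 5 libraries and open circles for the libraries labelled replicate 2 of the vehicle groups. The P10 groups are above all P120 groups for *Slco1c1* and below them for *Dio3*, and HT-Flx and WT-Flx are fully apart for *Dio2*, *Thra*, *Hr*, *Klf9* and *Nr1d1*.

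Among the adults, HT-Flx and WT-Flx differed most. *Dio2*, *Thrb* and *Klf9* were lower in HT-Flx, and *Dio3*, *Thra* and *Hr* were higher. This comparison asks how the genotypes differ after early fluoxetine. Every HT-Flx library had a GC tilt above 0 and every WT-Flx library below 0. Genotype and whatever gave the tilt cannot be told apart here. *Thra* had 57409, 45286, 40437, 54245 and 33584 normalized counts in HT-Flx against 24771, 24892, 22204, 23587 and 26874 in WT-Flx. Each HT-Flx library exceeded each WT-Flx library, and the log2 difference was 0.89 (SE 0.13, adjusted p = 1.19e-04 in limma, 1.86-fold). After correction it was 0.16 (SE 0.086, adjusted p = 0.156 in limma). *Nr1d1*, which shares exonic sequence with *Thra*, had 4483 to 5179 in HT-Flx against 2670 to 3392 in WT-Flx, a difference of 0.75, or 0.08 after correction.

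*Hr* had 3151, 3086, 2784, 3772 and 3382 normalized counts in HT-Flx against 1745, 1273, 1834, 2112 and 1810 in WT-Flx. The groups were apart, with a log2 difference of 0.89 (SE 0.13, adjusted p = 9.30e-05 in limma) that became 0.07 after correction. *Klf9*, the other response gene, went the other way, with 2830, 3733, 3708, 4087 and 5016 in HT-Flx against 5123, 5680, 5655, 5330 and 6890 in WT-Flx. Its log2 difference was −0.58 (SE 0.14, adjusted p = 0.00232 in limma), or −0.20 after correction (adjusted p = 0.127 in limma). *Thrb* had 661 to 731 in 4 HT-Flx libraries and 1002 in replicate 4, and 1193 to 1383 in 4 WT-Flx libraries and 823 in replicate 4, so that the ranges overlapped through the 2 libraries numbered 4. Its difference of −0.64 (SE 0.15, adjusted p = 0.00266 in limma) became 0.08 after correction.

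*Dio2* had 513, 862, 555, 1184 and 1218 normalized counts in HT-Flx against 1811, 1890, 1542, 1736 and 2546 in WT-Flx, with no overlap. The log2 difference was −1.21 (SE 0.24, adjusted p = 8.19e-04 in limma, 2.31-fold lower), the largest in size among the 7 genes in this comparison. *Dio3* had 228, 186, 140, 209 and 64.4 in HT-Flx against 62.1, 97.0, 52.1, 72.4 and 67.1 in WT-Flx. HT-Flx replicate 5 lay inside the WT-Flx range, the other 4 lay above it, and the difference was 1.13 (SE 0.30, adjusted p = 0.00595 in limma). After correction the differences were −0.33 for *Dio2* (adjusted p = 0.0948 in limma) and 0.53 for *Dio3* (adjusted p = 0.110 in limma), and the direction of each was the same as before it.

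*Slco1c1* was the exception, with 1205, 1201, 1534, 970 and 1419 normalized counts in HT-Flx against 1496, 1580, 1311, 1270 and 1438 in WT-Flx. The groups overlapped and the log2 difference was −0.18 (SE 0.12, adjusted p = 0.215 in limma). After correction the values were 10.06 to 11.01 in HT-Flx against 9.95 to 10.30 in WT-Flx on the log2 scale, and the difference was 0.44 (SE 0.15, adjusted p = 0.0342 in limma), with the sign turned. It was the gene of the 7 that passed after correction.

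As deposited, 6 of the 7 genes passed between HT-Flx and WT-Flx, beside 63.7% of the 17799 genes tested, and 4 of the 7 had groups fully apart, beside 48.5% of all genes. After correction 1 of the 7 passed, and 6243 of the 17799 genes. The targeted gene *Arid1b* was at −0.41 as deposited and −0.70 after the same correction, against −0.55 and −0.51 in P10-HT against P10-WT. In the same libraries the summed level of 10 endothelium markers was 14103 to 15680 in HT-Flx against 11608 to 13243 in WT-Flx, that of 8 neuron markers 144371 to 220991 and 177257 to 199208, and that of 5 ependyma and tanycyte markers 1820 to 2375 and 1240 to 1466. Single markers were mixed, with 2 higher and 4 lower of the 10 endothelium markers, 2 higher and 5 lower of the 8 neuron markers, and 1 higher and 0 lower of the 5 ependyma and tanycyte markers, where 63.7% of all genes passed. Of 5 blood markers 3 were higher and 0 lower. *Rax*, a further tanycyte marker, was not analysed here. The part of these cell types in the differences was not tested.

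**Figure D4:**
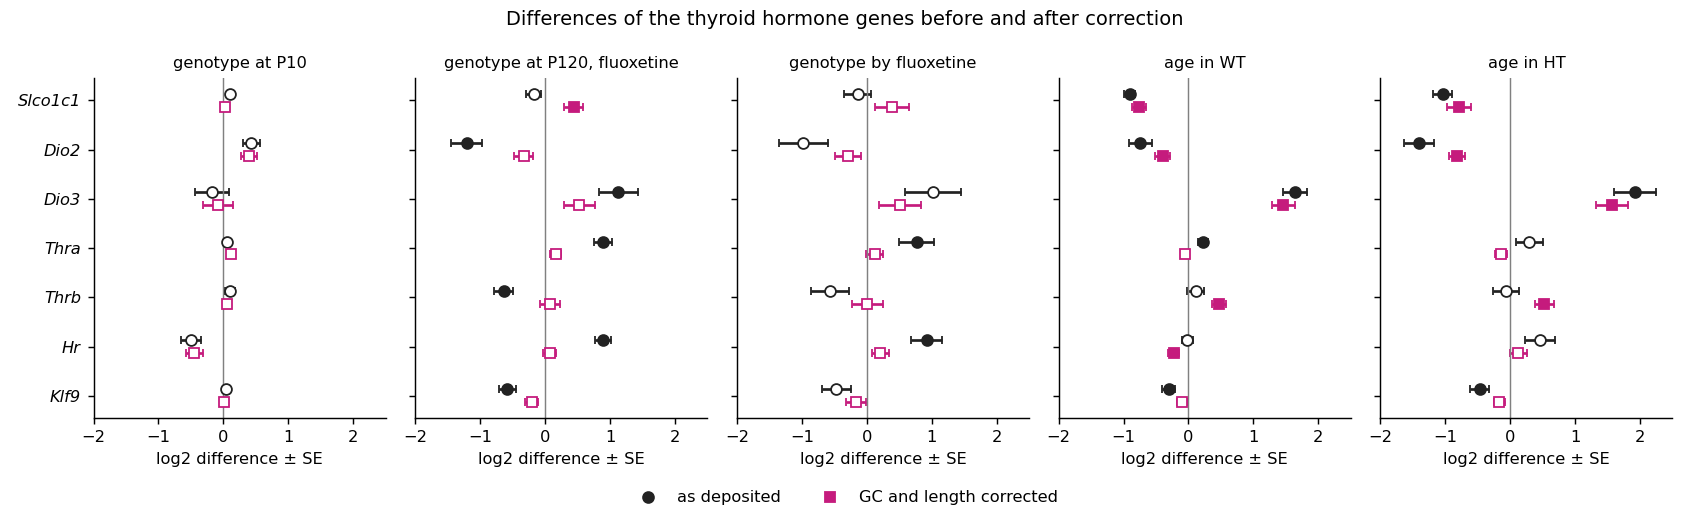
log2 differences with SE for the 7 genes in 5 of the 9 comparisons (first minus second group, or HT minus WT in the effect of fluoxetine), as deposited (black circles) and corrected for GC content and length (magenta squares), filled where the adjusted p was under 0.05. Between HT-Flx and WT-Flx the black circles are filled for 6 genes and the magenta squares for *Slco1c1* alone, whereas for age the symbols of *Slco1c1*, *Dio2* and *Dio3* are filled in both colors.

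Neither drug effect taken within a genotype passed for any of the 7 genes. HT-Flx against HT-Veh had 0 of 7, beside 0% of 17676 genes in limma (4082 with an unadjusted p under 0.05), and WT-Flx against WT-Veh had 0 of 7, beside 0% of 17865 genes (4504 with an unadjusted p under 0.05). No gene of the 7 had groups fully apart, beside 1.62% of all genes in HT and 6.41% in WT. In HT, *Hr* was at 2784 to 3772 with fluoxetine and 1483 to 3037 with vehicle, a difference of 0.60 (SE 0.19, adjusted p = 0.215 in limma). In WT, *Thra* was at 22204 to 26874 with fluoxetine and 26545 to 34390 with vehicle, a difference of −0.33 (SE 0.082, adjusted p = 0.0849 in limma), and this passed when WT-Veh replicate 1 (−0.33, adjusted p = 0.0449) or WT-Veh replicate 5 (−0.38, adjusted p = 0.0427) was left out. *Dio2* was −0.59 (SE 0.30) in HT and 0.39 (SE 0.19) in WT. Without the library labelled HT-Veh replicate 2 the count in HT was 0, with 0.65 for *Hr* and −0.66 for *Dio2*. Without the library labelled WT-Veh replicate 2 the count in WT was 0, with −0.29 for *Thra* (adjusted p = 0.196 in limma) and 0.42 for *Dio2*. With every library kept, the corrected *Thra* difference in WT was −0.04 (SE 0.076, adjusted p = 0.878 in limma). Corrected *Hr* in HT was at 0.20 (adjusted p = 0.452 in limma), and corrected *Dio2* at −0.15 in HT and 0.16 in WT. *Slco1c1* in HT grew instead, from 0.04 to 0.41 (adjusted p = 0.470 in limma). The corrected count was 0 of 7 in each genotype.

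The difference between these drug effects, HT minus WT, passed for *Hr* (0.92, SE 0.24, adjusted p = 0.0347 in limma) and *Thra* (0.77, SE 0.27, adjusted p = 0.0419 in limma), 2 of the 7 genes beside 27.3% of the 17796 genes tested. It was −0.98 for *Dio2* (SE 0.38, adjusted p = 0.0581 in limma) and 1.02 for *Dio3* (SE 0.43, adjusted p = 0.0749 in limma), which did not pass. Without both libraries labelled replicate 2 of the vehicle groups, *Hr* was at 1.03 (adjusted p = 0.0576), *Thra* at 0.73 (adjusted p = 0.0803), *Dio2* at −1.08 (adjusted p = 0.0713) and *Dio3* at 0.81 (adjusted p = 0.186), and 0 of the 7 and 0 of all genes passed in limma (7312 with an unadjusted p under 0.05). After correction *Hr* was at 0.21 and *Thra* at 0.12, and 0 of all genes passed (3659 with an unadjusted p under 0.05). With 1 library left out at a time *Hr* passed in 12 of 20 fits and *Thra* in 5 of 20. *Hr* was lost without HT-Flx replicate 1, WT-Flx replicates 2 or 3, HT-Veh replicates 4 or 5, or WT-Veh replicates 2, 3 or 4, with adjusted p between 0.0538 and 0.0762. *Thra* passed only without HT-Flx replicate 5, HT-Veh replicates 1 or 3, or WT-Veh replicates 1 or 5, and elsewhere had an adjusted p between 0.0514 and 0.0903 in limma. *Dio2* passed without HT-Flx replicate 4 (adjusted p = 0.0376), HT-Flx replicate 5 (0.0361), HT-Veh replicate 1 (0.0216) or WT-Veh replicate 5 (0.0432), *Dio3* without HT-Flx replicate 5 (0.0279) or HT-Veh replicate 3 (0.0275), and *Thrb* without HT-Veh replicate 1 (0.0364), all in limma.

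HT-Veh and WT-Veh, compared in 4 libraries each to ask what the mutation does in adults without fluoxetine, gave no member that passed. The log2 differences were 0.32 for *Dio3* (SE 0.30), 0.16 for *Thra* (SE 0.27), 0.12 for *Thrb* (SE 0.24), −0.09 for *Klf9* (SE 0.21), −0.11 for *Slco1c1* (SE 0.20), −0.12 for *Dio2* (SE 0.31) and −0.13 for *Hr* (SE 0.22). The HT-Veh libraries spread widely, for instance 41316, 54444, 21948 and 24885 for *Thra* against 30021, 32828, 29977 and 26545 in WT-Veh. Of the 7 genes 0 passed, beside 0% of 17784 genes (229 with an unadjusted p under 0.05 in limma), and as deposited 0 had groups apart, beside 1.04% of all genes. With all 5 and 5 libraries 0 passed, the values ran from −0.23 for *Dio2* to 0.12 for *Thra*, and *Thrb* was at −0.07. The smallest p that an exact permutation test of 4 and 4 allows is 0.0286. After correction of the 4 and 4 libraries 0 of the 7 and 0 of all genes passed (423 with an unadjusted p under 0.05 in limma). The corrected differences ran from −0.21 for *Hr* (SE 0.081) to 0.27 for *Thrb* (SE 0.14). Corrected values of *Hr* were 10.91 to 11.02 in HT-Veh and 11.12 to 11.20 in WT-Veh on the log2 scale. The share of all genes with corrected ranges apart was not counted.

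At P10 the 2 genotypes were close in most of these genes. The exceptions in size were *Hr*, with 955, 1917, 1906, 1803 and 1404 normalized counts in P10-HT and 2190, 2143, 2361, 1943 and 2344 in P10-WT, and *Dio2*, whose values are given above. For *Hr* each P10-HT library lay below each P10-WT library. The log2 difference was −0.50 (SE 0.16, adjusted p = 0.304 in limma, exact permutation p = 0.00794 before any adjustment), and it was −0.45 after correction. For *Dio2* it was 0.43 (SE 0.13, adjusted p = 0.304 in limma, exact permutation p = 0.0317 before adjustment), and 0.39 after correction. The other 5 genes were between −0.17 (*Dio3*, SE 0.26) and 0.10 (*Thrb*, SE 0.071). At P10, 0 of the 7 genes passed, beside 0.0224% of 17896 genes, and 1 of the 7, *Hr*, had groups apart, beside 3.12% of all genes. P10-HT replicate 1 had the lowest *Hr*, the highest *Dio2* and the lowest *Dio3* of the 10 libraries and the lowest GC tilt. Without it *Hr* was at −0.33 and *Dio2* at 0.31, the values nearest 0 among the 10 fits that leave out 1 library.

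A list of 47 further genes of the pathway was examined, of which 44 had values. It holds transporters, deiodination cofactors and regulators, binding proteins, receptor partners and known response genes. Between P10 and P120, 14 of 44 were higher and 19 lower in WT, 75% of the list beside 58.3% of all genes, and 15 were higher and 17 lower in HT, 72.7% beside 51.1%. The median log2 difference of the list was −0.09 in WT and −0.06 in HT, beside −0.01 and −0.02 for all genes tested. The transporter *Slco4a1* rose from 131 ± 5.4 to 336 ± 77.1 (SD, n = 5) in WT, a log2 difference of 1.32 (SE 0.15, adjusted p = 8.11e-06 in limma). *Rxra*, which encodes a retinoid X receptor that pairs with thyroid hormone receptors, rose by 1.45 in WT and 1.69 in HT. *Ttr*, the T4 carrier transthyretin made by choroid plexus, rose from 9651 to 28388 in HT, by 1.56 (SE 0.17), and the summed level of 9 choroid plexus markers, which include it, was 7564 to 12795 in P10-HT and 24967 to 39096 in HT-Veh. How much of the *Ttr* difference is plexus tissue was not tested.

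Among the response genes of the list, 3 of 16 were higher and 7 lower in WT, where 58.3% of all genes passed, and 5 were higher and 6 lower in HT, where 51.1% did. *Rasd2* (Rhes, a striatal GTPase induced by T3) rose by 1.39 in WT and 1.59 in HT. *Camk4*, a neuronal kinase induced by T3, fell, with differences of −1.19 in WT and −1.40 in HT. Known targets thus stood on both sides. *Iyd*, listed under deiodination and not as a response gene, recovers iodide from iodinated tyrosines. It fell in both genotypes, with a log2 difference of −1.16 in WT, where its mean was 34.3 at P10 and 15.0 at P120. Of the 14 receptor partners 6 were higher and 5 lower in WT, and of the 6 transporters 2 were higher and 3 lower, both to be read beside the same 58.3%. Without the library labelled WT-Veh replicate 2 the list had 14 higher and 17 lower in WT, where 10056 of 17936 genes passed. Without the library labelled HT-Veh replicate 2 it had 14 higher and 15 lower in HT, where 8221 of 18015 genes passed. After correction it had 15 higher and 15 lower in WT, where 10624 of 17927 genes passed. The corrected counts in HT were 18 higher and 16 lower, where 10109 of 17989 genes passed.

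**Figure D5:**
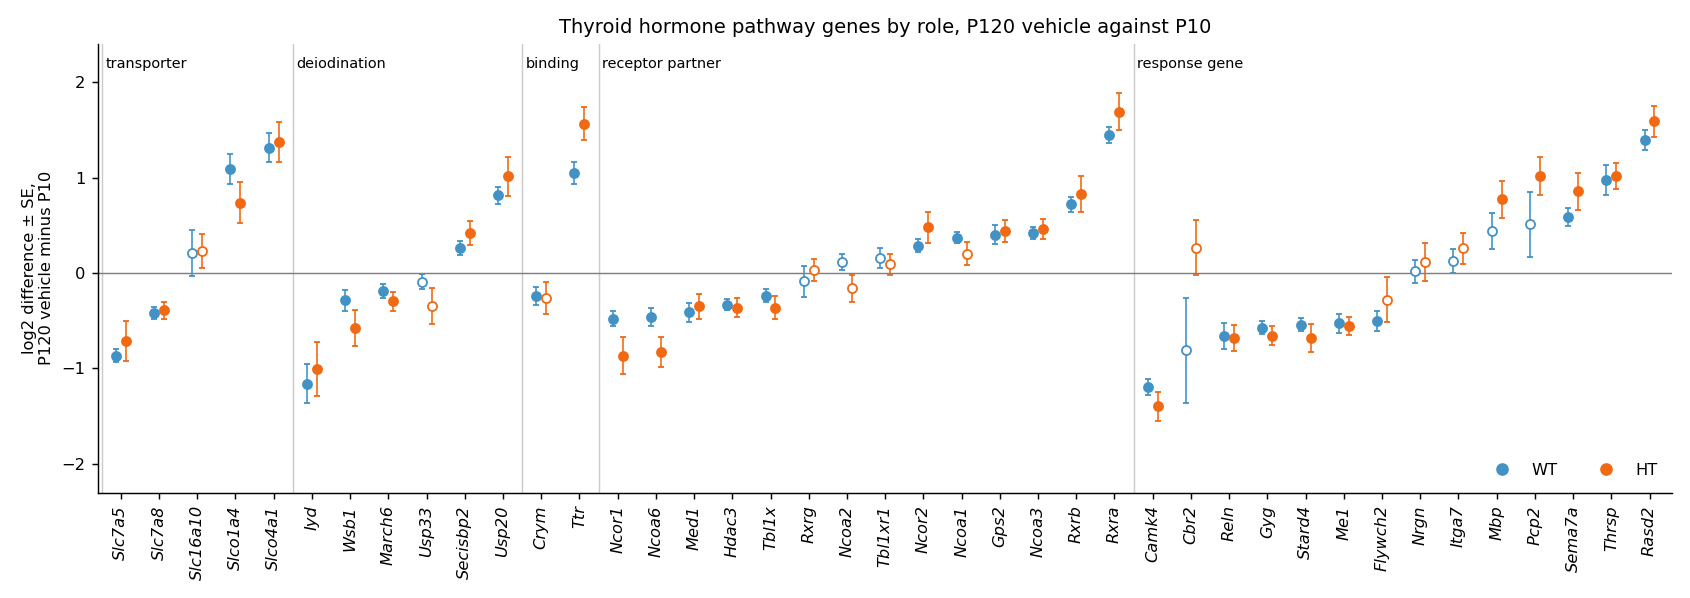
log2 difference of P120 vehicle minus P10, with SE, for 41 of the further pathway genes, grouped by role and ordered within it by the WT value, for WT (blue) and HT (orange), filled where the adjusted p was under 0.05. In WT each role has genes on both sides of 0, and of the genes drawn *Rxra*, *Rasd2* and *Ttr* are the highest in HT and *Camk4* is the lowest.

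Between HT-Flx and WT-Flx, 15 of the 44 genes were higher and 14 lower, 65.9% of the list beside 63.7% of all genes. After correction 10 were higher and 9 lower, where 6243 of 17799 genes passed. *Slco4a1* (1.03, corrected 0.45), *Sema7a* (1.03, corrected 0.36), which encodes a semaphorin, and *Slc7a5* (1.02, corrected 0.44), which encodes the amino acid and thyroid hormone carrier LAT1, were the highest of those that passed. *Slco1a4* (−1.17, corrected −0.26), a transporter of the blood-brain barrier, *Wsb1* (−1.05, corrected −0.45), which encodes a subunit of the ligase that ubiquitinates type 2 deiodinase, and *Usp33* (−0.97, corrected −0.21), a deubiquitinase of the same enzyme, were the lowest of those that passed. The corrected value of *Slco4a1* did not pass (adjusted p = 0.176 in limma), and the other 5 passed. For the difference between drug effects 10 of 44 were higher and 4 lower, 31.8% of the list beside 27.3% of all genes, among them *Slco4a1* (1.02), *Sema7a* (0.93), *Slc7a5* (0.88), *Slco1a4* (−0.93) and *Wsb1* (−0.83). Without both libraries labelled replicate 2 of the vehicle groups, and likewise after correction, 0 of the 44 passed. In the other 5 comparisons, the genotypes at P10 and at P120 with vehicle, fluoxetine in HT and in WT, and genotype by age, 0 of the 44 passed in limma.

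The genes whose values varied most like each member were found from the deviations of log2 values from their group means over the 30 libraries, among 14525 genes. The libraries share the GC tilt, and the correlations are a description. *Thra* was closest to *Ehmt2* (Pearson r = 0.98), *Mlf2* (0.98) and *Dlg4* (0.98), *Dio2* to *Acsl3* (0.94), *Pcsk1* (0.91) and *Rock2* (0.91), and *Hr* to *Metrn* (0.92), *Fam222a* (0.89) and *Mcrip2* (0.88). *Thrb* was closest to *St8sia3* (0.90), *AC127249.1* (0.90) and *Vstm2a* (0.89), and *Klf9* to *Itsn2* (0.90), *Rhot1* (0.90) and *Peli1* (0.89). *Dio3* was closest to *Mmp17* (0.86), *Speg* (0.84) and *Twf2* (0.84), and *Slco1c1* to *Mrpl24* (0.83), *Ist1* (0.82) and *Srpk1* (0.82). Among the members, *Dio2* and *Klf9* varied together (r = 0.83), *Thra* and *Dio3* did so (0.67), and *Thra* and *Klf9* varied in opposite directions (−0.74). *Thra* and its overlapping neighbor *Nr1d1* had r = 0.79.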

How the data were processed

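Normalized counts of 30 whole-brain libraries were analysed. The authors quantified poly-A RNA-Seq reads with Salmon 1.1.0 against GRCm38 with its GC bias option, summed transcripts to genes with tximport, and deposited a signal, counts normalized with DESeq2 1.30.1 (submitters' processing notes). Values are not whole reads, so depth is unknown and no counting error can be given. The 30 libraries share a normalization (median ratio to the geometric mean 1.01 in each), which allows comparison across ages. Whether counting used strand is not given in the sources used here.

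Groups came from the labels, which name single mice. Genes with a mean of at least 10 in a comparison were tested with limma 3.58.1 (R 4.3.3, intensity trend, log2(value + 1)), p was adjusted over all genes, and single genes were also given a two-sided exact permutation test over libraries. The 9 comparisons are HT against WT at P10, with vehicle and with fluoxetine, Flx against Veh in HT and in WT, P120 vehicle against P10 in WT and in HT, and genotype by fluoxetine and by age. The correction subtracts each library's mean deviation in 50 bins of GC content by 4 of transcript length, and would also remove real change shared by genes of a bin. The tests were checked on simulated data. Sequences and coordinates are from GENCODE M21 and RefSeq (GRCm38). Levels per kb use the longest coding transcript.

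The members and lists were chosen with earlier results of these data known. Named genes were the 7 members, the targeted gene *Arid1b*, the neighbors *Nr1d1* and *Dio3os*, up to 3 higher and 3 lower list genes per comparison among those that passed, and the 3 most correlated genes per member with a mean of at least 50. Some genes of the pathway list are counted but not reported singly here. Alternatives were a pseudocount of 5, no filter, rescaling, a replicate block, the correction with and without the block, and each library left out. After the values were seen, the correction with all 5 and 5 vehicle libraries, and list counts without the 2 libraries whose *Arid1b* goes against their label, were added. The replicate numbers were not taken as pairs, since in no pair of groups did all 5 same-numbered libraries correlate above 0.1.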

Additional observations from a re-analysis of the deposited data

Results flagged for a closer look

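The effect of fluoxetine differed between HT and WT by the test of that difference for 2 members, *Hr* (0.92, adjusted p = 0.0347 in limma) and *Thra* (0.77, adjusted p = 0.0419), and for *Nr1d1* (0.66, adjusted p = 0.0365), *Rxra* (0.76, adjusted p = 0.0347), *Slc7a5* (0.88, adjusted p = 0.0347), *Sema7a* (0.93, adjusted p = 0.0347), *Slco4a1* (1.02, adjusted p = 0.0405), *Slco1a4* (−0.93, adjusted p = 0.0357), *Wsb1* (−0.83, adjusted p = 0.0347) and *Usp33* (−0.74, adjusted p = 0.0407). None of these differences passed without both libraries labelled replicate 2 of the vehicle groups, or after correction for GC content and length.

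In 120 groups of 5 libraries (20 named genes by 6 groups), 9 held a library far from the other 4 by Dixon's criterion, where chance alone gives about 1 in 20. *Thrb* was at 812 in P10-WT replicate 3 against 910 to 948 in the others, and at 1002 in HT-Flx replicate 4 against 661 to 731. *Nr1d1* was at 3392 in WT-Flx replicate 5 against 2670 to 2717. *Arid1b* was at 2320 in the library labelled WT-Veh replicate 2 against 3036 to 3229, and at 3164 in P10-WT replicate 5 against 3271 to 3309. *Camk4* was at 2794 in P10-WT replicate 1 against 2997 to 3045, *Slco4a1* at 141 in P10-WT replicate 4 against 127 to 130, and *Slco1a4* at 750 in P10-HT replicate 5 against 510 to 558. *Ttr* was at 30626 in HT-Flx replicate 5 against 22259 to 23970.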

How the results depend on the processing

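A pseudocount of 5, no filter and rescaling changed no count of members that passed in any of the 9 comparisons, and no member's direction or call. Depth is unknown, so the spread between mice sets the precision. The corrected counts were 1 of 7 between HT-Flx and WT-Flx and 0 for genotype by fluoxetine. With the replicate block too they were 3, where 5031 of 17799 genes passed, and 0. Uncorrected, 0 passed for genotype by fluoxetine without both libraries labelled replicate 2 of the vehicle groups. The replicate block alone gave 1 of 7 for fluoxetine in HT (*Dio2*, −0.59, adjusted p = 0.0330). It gave 3 for genotype by fluoxetine, where 5542 of 17796 genes passed. Over all genes the block gave 1355 calls in place of 0 for fluoxetine in HT and 7 in place of 4 at P10, and the correction 6243 in place of 11330 between HT-Flx and WT-Flx and 0 in place of 4852 for genotype by fluoxetine. The labels of same-numbered libraries share only the number. Between HT-Flx and HT-Veh, same-numbered libraries correlated at a mean of 0.18 and other pairs at −0.04. Of the 5 HT-Flx libraries, 3 correlated best with their own number in HT-Veh. Whether these libraries are related was not tested. The cause of these changes was not tested.

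Signs turned after correction, with equal values with and without the block, for *Slco1c1* (HT-Flx against WT-Flx 0.44, genotype by fluoxetine 0.39, fluoxetine in WT −0.016), *Dio2* (vehicle genotypes 0.044), *Thrb* (HT-Flx against WT-Flx 0.078, fluoxetine in HT 0.086, genotype by fluoxetine 0.00996, age in HT 0.52, genotype by age 0.016), *Thra* (age in WT −0.056, age in HT −0.14, genotype by age −0.089) and *Nr1d1* (fluoxetine in HT −0.043). With all 5 and 5 vehicle libraries *Thrb* was at −0.073, and with the correction too *Slco1c1* was at 0.056. Without both replicate 2 libraries, genotype by age was 0.022 for *Thrb*.

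With 1 library left out at a time, the members that passed ranged from 0 to 1 for fluoxetine in WT, from 0 to 4 for genotype by fluoxetine and from 4 to 6 for age in HT. The genes that passed over all tested ranged from 0 to 1400, from 0 to 7667 and from 8128 to 10177 in these comparisons. Differences of the members and *Nr1d1* that took both signs ran from −0.32 to 0.054 for *Dio3* at P10. In the vehicle genotypes they ran from −0.21 to 0.063 for *Slco1c1*, −0.33 to 0.12 for *Dio2*, −0.075 to 0.36 for *Thra*, −0.0046 to 0.37 for *Thrb*, −0.32 to 0.022 for *Hr*, −0.25 to 0.034 for *Klf9* and −0.068 to 0.25 for *Nr1d1*. They ran from −0.10 to 0.13 for *Slco1c1* with fluoxetine in HT, −0.064 to 0.038 for *Hr* with age in WT, −0.17 to 0.091 for *Thrb* with age in HT, and for genotype by age −0.20 to 0.013 for *Slco1c1*, −0.11 to 0.22 for *Thra* and −0.042 to 0.20 for *Nr1d1*.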

Other observations

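Other lists were counted in the age comparisons, in which 58.3% of all genes passed in WT and 51.1% in HT. Of 12 clock output genes, which include *Nr1d1*, 10 were higher and 0 lower at P120 in each genotype, with a median log2 difference of 1.19 in WT and 1.07 in HT. Of 12 immediate early genes 11 were higher in WT and 6 in HT, with 0 lower, and 7 were higher and 0 lower in HT-Flx against WT-Flx, where 63.7% of all genes passed. Of 10 glucocorticoid response genes 7 were higher and 1 lower in WT and 5 higher and 2 lower in HT.

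Beside the same shares, higher and lower counts of cell type markers in WT were 6 and 1 of 9 for choroid plexus, 5 and 1 of 10 for astrocytes, 4 and 0 of 7 for mature oligodendrocytes, 4 and 1 of 6 for microglia, 3 and 1 of 5 for ependyma and tanycytes, 4 and 2 of 8 for neurons, 4 and 5 of 10 for brain endothelium, 0 and 2 of 5 for blood, and 1 and 0 of 3 for pituitary. In HT they were 7 and 1 for choroid plexus, 5 and 1 for astrocytes, 5 and 0 for mature oligodendrocytes, 4 and 0 for microglia, 3 and 1 for ependyma and tanycytes, 4 and 3 for neurons, 4 and 2 for brain endothelium, 0 and 0 for blood, and 1 and 0 for pituitary.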
